A study of Mus musculus with 20 samples.

Results

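The genes described here are 9 transcription factors that mark the layers of the cerebral cortex, followed across 20 RNA sequencing libraries of cultured mouse cortical neurons. They were taken by symbol (Bcl11b, Fezf2, Tbr1, Sox5, Foxp2, Cux1, Cux2, Pou3f2 and Rorb), and all 9 were among the 14700 genes present in at least 1 of the 4 deposited tables. All 9 were present in each of the 4 tables. Neurons came from mouse cortex at embryonic day 15 and had grown for 7 days before treatment. The 4 groups of 5 libraries were N_WT (wild type, 12 h of normoxia with 25 mM glucose and 0.2 mM pyruvate), OGD_WT (wild type, 12 h of oxygen and glucose deprivation at 1% oxygen with no glucose or pyruvate added), and N_KO and OGD_KO, the same treatments of neurons lacking the circular RNA ciRS-7 (gene Cdr1as). The strain label C57BL/6N-Cdr1asem1Nikr was given to all 20 libraries, wild-type ones included. The design text calls the 5 libraries of a group biological replicates. An N and an OGD library of the same number carried the same genotype number (such as WT1) and the same batch label. The labels give batches 1, 2, 3.1, 3.2 and 3.3, and the last 3 of these are joined here as batch 3.

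Excitatory neurons of the cortex are born in order: those of the deep layers first, those of the upper layers later. Bcl11b (CTIP2) and Fezf2 direct neurons of layer 5 to send axons to the brainstem and spinal cord, Tbr1 directs layer 6 neurons towards the thalamus, and Sox5 controls the timing by which deep-layer types arise, while Foxp2 marks layer 6. Cux1 and Cux2 shape dendrites and synapses of upper-layer neurons, Pou3f2 (BRN2) acts with Pou3f3 in the production and migration of upper-layer neurons, and Rorb marks layer 4. Several of these factors restrain one another during development, among them Tbr1, which represses Fezf2 and Bcl11b in layer 6. In dissociated cultures there are no layers, so the factors describe the identity of the neurons and not their place. Bcl11b is also expressed in striatal neurons and some interneurons, and Pou3f2, Cux1 and Sox5 also in progenitor or glial cells.

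The labels were checked first. Recovered reads of Cdr1as numbered 700 to 1365 in N_WT and 5 to 16 in N_KO, and 545 to 1912 in OGD_WT and 2 to 14 in OGD_KO. All 8 hypoxia-responsive genes checked rose under OGD in both genotypes, with Slc2a1, a glucose transporter, higher by 3.95 ± 0.21 (log2 fold change ± SE) in wild type and 3.495 ± 0.22 in the knockout. Of the OGD libraries, OGD_WT replicate 5 had the lowest summed level of the 7 hypoxia genes present in all tables, 465 CPM (reads of a gene relative to the size of its library) against 1052 to 1823 in the other 4. The normoxic libraries lay between 112 and 319 CPM. All 8 neuron markers examined were present, and none of 8 microglia markers was in the tables. Between 7064141 and 16645011 reads per library were recovered over the 13688 genes shared by all tables, and a layer factor had between 91 reads (Foxp2) and 5293 reads (Bcl11b) in a library.

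Bcl11b, Tbr1 and Sox5 fell about 2-fold under OGD in both genotypes, Pou3f2 rose, and no factor differed detectably between genotypes. In wild type 6 of the 9 factors were called (Benjamini-Hochberg adjusted p under 0.05 in limma), 2 higher and 4 lower, where 44.3% of all 14235 genes were called, 21.6% higher and 22.8% lower. In the knockout 7 were called, 2 higher and 5 lower, where 40.9% of 14375 genes were called, 21% higher and 19.9% lower. Groups did not overlap for 4 factors in wild type, where 26.9% of all genes did not overlap, and for 5 in the knockout, where 25.8% did not. The median log2 fold change of the 9 factors was -0.32 in wild type and -0.49 in the knockout, beside medians of -0.03 and 0.00 over all genes tested. Within batch 3, which held 4 wild-type and 3 knockout cultures, 4 factors were called in wild type, where 34.5% of all genes were, and 3 in the knockout, where 16.3% were. Batches 1 and 2 held at most 1 culture of a genotype. With the batch labels as given as a covariate, a fit chosen after seeing the data, 5 factors were called in each genotype, beside 38.6% of all genes in wild type and 34.2% in the knockout. Without OGD_WT replicate 5, the library with the lowest hypoxia genes, 5 factors were called in wild type, 2 higher and 3 lower, beside 46.6% of all genes. With the culture as a block, 6 factors were called in wild type and 5 in the knockout, beside 39.9% and 33.6% of all genes. Scaling by library total moved the median of all genes to -0.30 in wild type and -0.28 in the knockout, and the share of higher calls from 48.6% to 22.1% and from 51.3% to 21.9%. Under that scaling 1 factor was called higher and 5 lower in each genotype, beside 51.8% of all genes called in wild type and 47.1% in the knockout. These libraries are bulk RNA, so fewer cells of a type and less of a transcript per cell cannot be told apart.

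**Figure D1:**
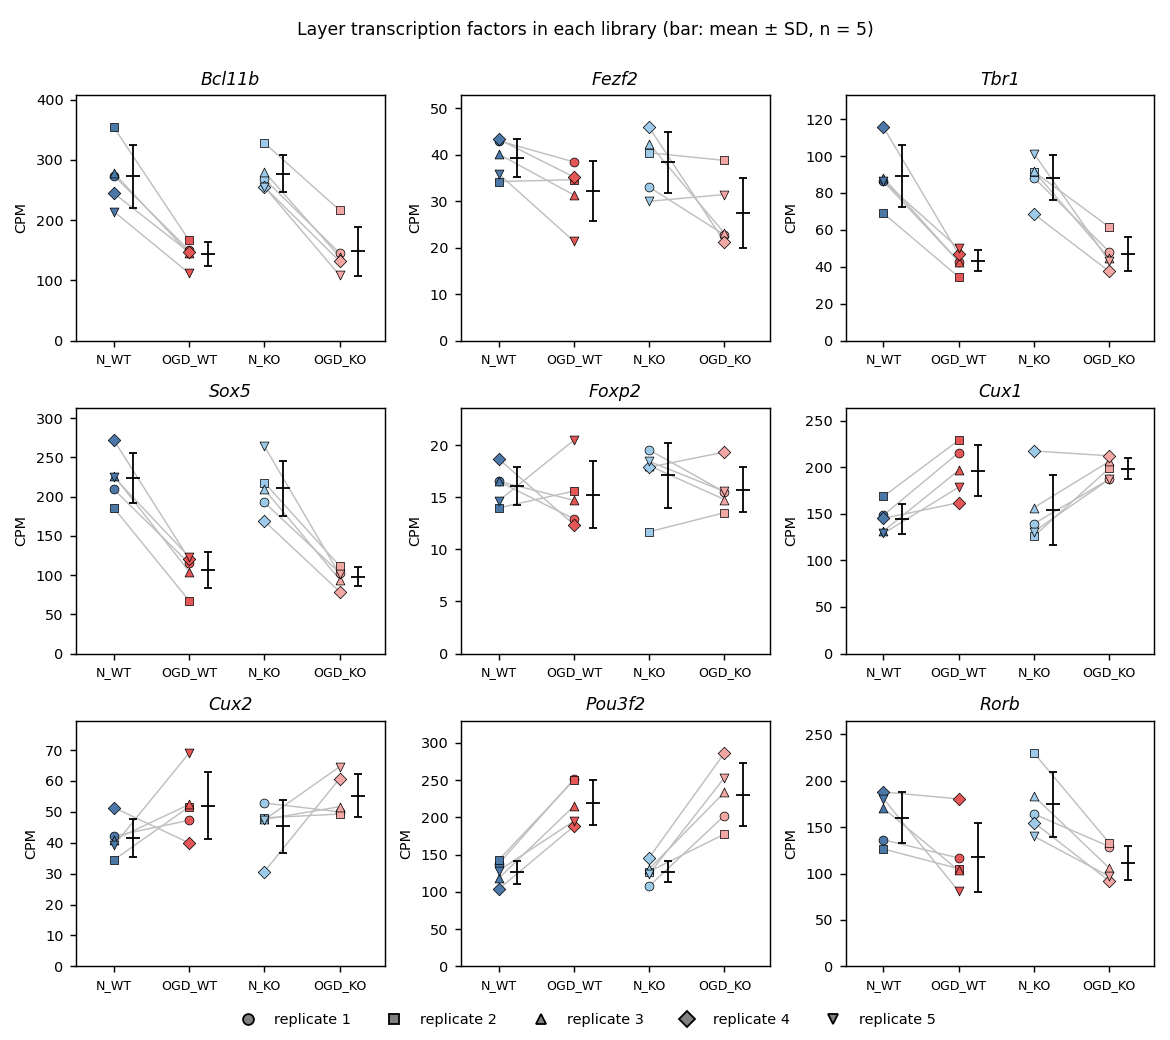
Level of each factor in CPM (y axis, from 0) in the 20 libraries; a symbol is 1 library, its shape the replicate number, grey lines join the N and OGD library of a culture, and bars give mean ± SD (n = 5). Bcl11b, Tbr1 and Sox5 were lower and Pou3f2 higher in every OGD library than in any normoxic library of the same genotype.

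Bcl11b (chr12:107910403-108003602, minus strand, mm10), a zinc finger repressor that sets the layer 5 subcerebral identity, was at 274, 354, 278, 245 and 214 CPM in N_WT replicates 1 to 5 and at 149.8, 166, 145, 147 and 112 CPM in OGD_WT. In N_KO it was at 268, 328, 280.1, 255 and 255 CPM, and in OGD_KO at 145, 216, 139, 132 and 108 CPM. Every OGD library lay below every normoxic library of its genotype, so Bcl11b was necessarily lower in all 10 cultures. The log2 fold change (OGD minus N) was -0.92 ± 0.16 (SE) in wild type, a 1.90-fold lower level (limma adjusted p = 7.82e-05), and -0.92 ± 0.18 in the knockout (limma adjusted p = 0.000401). Its call was kept in all 11 other settings tried and without each library in turn, in both genotypes.

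Tbr1 (chr2:61802930-61814114, plus strand, mm10), the T-box factor of layer 6 neurons, was at 86.3, 69.0, 88.2, 116 and 86.4 CPM in N_WT and at 42.8, 34.5, 42.8, 46.8 and 49.95 CPM in OGD_WT. The knockout values were 88.2, 91.5, 91.8, 68.6 and 101 CPM in N_KO and 48.2, 61.5, 44.6, 37.5 and 42.9 CPM in OGD_KO. Again the groups did not overlap in either genotype, so each of the 10 cultures necessarily had less Tbr1 under OGD. Tbr1 fell by 1.03 ± 0.15 (log2, SE; limma adjusted p = 1.86e-05) in wild type and by 0.90 ± 0.16 (limma adjusted p = 0.000204) in the knockout.

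Sox5 (chr6:143828425-144781977, minus strand, mm10), an HMG-box factor that holds back layer 5 features in subplate and layer 6 neurons, was at 209, 185, 227, 272 and 225 CPM in N_WT and at 115, 67.4, 104, 120.4 and 123 CPM in OGD_WT. N_KO libraries held 193, 218, 209, 169 and 264 CPM and OGD_KO libraries 103, 112, 94.3, 78.8 and 101 CPM. Sox5 had the largest fall of the 9 factors: only 482 of the other wild-type genes (3.39%) and 408 in the knockout (2.84%) had a lower fold change. The log2 fold change was -1.10 ± 0.17 in wild type (limma adjusted p = 2.34e-05) and -1.09 ± 0.16 in the knockout (limma adjusted p = 2.84e-05). OGD_WT replicate 2, at 67.4 CPM, stood apart from the other 4 OGD_WT libraries, and the call did not rest on it. An antisense gene, Sox5os1, covers up to 9.25% of the exon bases of Sox5, and 8.98% of the 50-base words of Sox5 also occur in another gene. Whether the authors' counting used the strand is not stated in the sources used here, so a part of the Sox5 reads may belong to that gene.

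Fezf2 (chr14:12342094-12348189, minus strand, mm10), the zinc finger factor upstream of Bcl11b in layer 5, was at 43.0, 34.2, 40.2, 43.4 and 35.9 CPM in N_WT and at 38.5, 34.6, 31.3, 35.2 and 21.4 CPM in OGD_WT. Knockout libraries had 33.0, 40.4, 42.4, 45.9 and 30.01 CPM in normoxia and 22.8, 38.8, 23.1, 21.3 and 31.5 CPM under OGD. The groups overlapped in both genotypes, and 4 of 5 cultures of each genotype were lower under OGD. The log2 fold change was -0.32 (95% interval -0.65 to 0.01, limma adjusted p = 0.109) in wild type and -0.49 ± 0.18 (SE; limma adjusted p = 0.0364) in the knockout. The knockout call did not hold with the culture as a block (limma adjusted p = 0.0656) or with batch as a covariate (0.0565, and 0.0501 with the labels as given). Within batch 3 the knockout value was -0.35 (limma adjusted p = 0.477). The knockout call was also lost in 6 of 10 fits without 1 library: without OGD_KO replicate 1, 3 or 4 and without N_KO replicate 2, 3 or 4 (limma adjusted p from 0.0711 to 0.0930). The wild-type value was -0.18 (limma adjusted p = 0.333) without OGD_WT replicate 5 and -0.60 (limma adjusted p = 0.00339) under library-total scaling. Under that scaling the knockout value was -0.78.

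Foxp2 (chr6:14901349-15441977, plus strand, mm10), a forkhead factor of layer 6, was the lowest of the 9 factors per length. Its libraries ranged from 14.0 to 18.7 CPM in N_WT, from 12.4 to 20.5 CPM in OGD_WT, from 11.7 to 19.5 CPM in N_KO and from 13.5 to 19.3 CPM in OGD_KO. Ranges overlapped throughout, and Foxp2 was lower under OGD in 3 of 5 cultures of each genotype. The 95% interval of its log2 fold change was -0.43 to 0.22 in wild type and -0.42 to 0.23 in the knockout. No change was detectable (limma adjusted p = 0.622 and 0.651), and a fall as large as that of Sox5 lay outside these intervals. Without 1 library in turn the value ran from -0.22 to -0.03 in wild type and from -0.22 to -0.05 in the knockout, and under library-total scaling it was -0.38 (limma adjusted p = 0.0583) and -0.39 (0.0634).

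Pou3f2 (chr4:22482780-22488366, minus strand, mm10), a POU-domain factor of upper-layer neurons and their progenitors, was at 138, 143, 118, 104 and 129 CPM in N_WT and at 251.3, 249.8, 215, 188 and 195 CPM in OGD_WT. In the knockout it was at 108, 127, 131, 146 and 124 CPM in normoxia and at 202, 178, 234, 286 and 253 CPM under OGD. Every OGD library exceeded every normoxic one, so the rise necessarily occurred in all 10 cultures. Pou3f2 rose by 0.79 ± 0.15 (log2, SE; limma adjusted p = 0.000202), or 1.73-fold, in wild type and by 0.85 ± 0.15 (limma adjusted p = 0.000267), or 1.81-fold, in the knockout. Fold changes above that of Pou3f2 were found for 8.52% of genes in wild type and 7.37% in the knockout. The rise was kept under library-total scaling, at 0.51 in wild type and 0.56 in the knockout. Within batch 3 the knockout value was 0.83 with a limma adjusted p of 0.0695.

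Cux1 (chr5:136248135-136567490, minus strand, mm10), a homeodomain factor of upper-layer neurons, was at 149, 169, 132, 145 and 129 CPM in N_WT and at 216, 229, 197, 162 and 179 CPM in OGD_WT. N_KO had 139, 126, 157, 218 and 131 CPM and OGD_KO 187, 199, 206, 212 and 187 CPM. The groups overlapped in both genotypes: OGD_WT replicate 4 lay below 1 N_WT library, and N_KO replicate 4 lay above all OGD_KO libraries. Cux1 was higher under OGD in 5 of 5 wild-type and 4 of 5 knockout cultures. The rise was 0.43 ± 0.15 (log2, SE; limma adjusted p = 0.0216) in wild type and 0.40 ± 0.16 (limma adjusted p = 0.0497) in the knockout. With the culture as a block the knockout adjusted p was 0.0634, and with batch as a covariate 0.109. With the batch labels as given it was 0.0582 in wild type and 0.103 in the knockout. Without OGD_WT replicate 1 or 3 or N_WT replicate 3 the wild-type p lay between 0.0550 and 0.0720. In the knockout only leaving out OGD_KO replicate 5 or N_KO replicate 4 kept the call, and the other 8 fits gave a limma adjusted p between 0.0671 and 0.118. Within batch 3 the log2 fold change was 0.40 (limma adjusted p = 0.118) in wild type and 0.39 (0.475) in the knockout. Under library-total scaling Cux1 had a log2 fold change of 0.15 (limma adjusted p = 0.454) in wild type and 0.11 (0.613) in the knockout, which is 0.45 and 0.39 above the median of all genes. The antisense gene Gm16599 covers up to 1.97% of the Cux1 exon bases.

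Cux2 (chr5:121856366-122050102, minus strand, mm10), the paralog of Cux1 with a narrower upper-layer expression, ranged from 34.4 to 51.4 CPM in N_WT and from 39.9 to 69.0 CPM in OGD_WT. Its range was 30.7 to 52.9 CPM in N_KO and 49.3 to 64.6 CPM in OGD_KO. Cux2 was higher under OGD in 4 of 5 cultures of each genotype, with overlapping groups. Its log2 fold change was 0.30 (95% interval -0.03 to 0.63, limma adjusted p = 0.133) in wild type and 0.31 (-0.02 to 0.64, 0.126) in the knockout. In wild type the value was 0.39 (limma adjusted p = 0.0444) without OGD_WT replicate 4 and 0.19 (0.330) without OGD_WT replicate 5. In the knockout it was 0.17 (limma adjusted p = 0.299) without N_KO replicate 4 and 0.49 (0.297) within batch 3. Under library-total scaling it was 0.02 in both genotypes.

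Rorb (chr19:18930605-19111196, minus strand, mm10), a nuclear receptor of layer 4, fell under OGD, as did Bcl11b, Tbr1 and Sox5. Its N_WT libraries held 136, 126, 170, 188 and 181 CPM and its OGD_WT libraries 117, 105, 103, 180.5 and 80.8 CPM. In N_KO it was at 164, 229.9, 183, 155 and 140.1 CPM and in OGD_KO at 129, 133, 106, 92.0 and 96.9 CPM. The knockout groups did not overlap, whereas OGD_WT replicate 4 lay within the N_WT range, and all 10 cultures were lower under OGD. Rorb fell by 0.50 ± 0.18 (log2, SE; limma adjusted p = 0.0316) in wild type and by 0.63 ± 0.17 (limma adjusted p = 0.00539) in the knockout. The wild-type call was lost without OGD_WT replicate 1, 2, 3 or 5 or N_WT replicate 3, 4 or 5 (limma adjusted p from 0.0513 to 0.0873). Within batch 3 it was -0.56 (limma adjusted p = 0.0510) in wild type and -0.68 (0.146) in the knockout.

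Exact permutation tests, two-sided, shuffled 5 against 5 libraries freely and did not keep the N and OGD library of a culture paired. Groups without overlap give the smallest exact permutation p of such a shuffling, 0.00794. It was reached by Bcl11b, Tbr1, Sox5 and Pou3f2 in both genotypes and by Rorb in the knockout. Adjusted over the 36 tests of 9 factors in 4 comparisons these 9 values were 0.0318, and no other test was under 0.05. Of all genes, 26.9% in wild type and 25.8% in the knockout also had no overlap between N and OGD. Among the others, the exact permutation p was 0.0159 for Cux1 in wild type, 0.0556 for Rorb in wild type and 0.0476 for Fezf2 in the knockout.

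**Figure D2:**
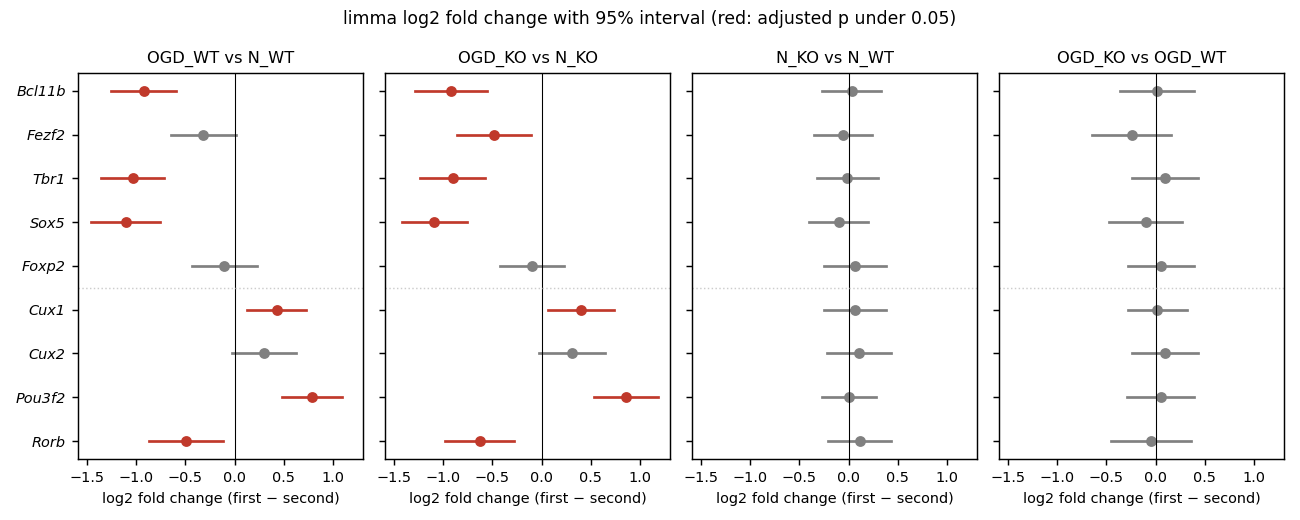
limma log2 fold change (x axis, first group minus second) of each factor in the 4 comparisons, with its 95% interval; red marks an adjusted p under 0.05, and the dotted line separates the 5 deep-layer factors from the others. In the left panels Bcl11b, Tbr1 and Sox5 lie near -1 and Pou3f2 near 0.8, and in the genotype panels every interval crosses 0.

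Per length of merged exons, the order of the factors changed between treatments. In N_WT Bcl11b was highest at 33.7 ± 6.42 CPM per kb (SD, n = 5), followed by Pou3f2 at 22.6 ± 2.81. Under OGD this order was reversed, with Pou3f2 at 39.4 ± 5.31 and Bcl11b at 17.7 ± 2.45 CPM per kb in OGD_WT. The knockout had the same order, with Bcl11b at 34.2 ± 3.72 and Pou3f2 at 22.8 ± 2.47 CPM per kb in N_KO and 18.3 ± 5.00 and 41.3 ± 7.62 in OGD_KO. Tbr1, Sox5, Rorb and Fezf2 followed in normoxia, between 12.6 and 16.2 CPM per kb on average, and neighbours among them overlapped. In N_WT the lowest Pou3f2 library (18.6) also lay below the highest Tbr1 library (21.1). Cux1 was at 7.23 ± 0.80 CPM per kb in N_WT, above Cux2 at 4.13 ± 0.62, and Foxp2 was lowest at 0.98 ± 0.11. Under OGD, Rorb, Fezf2, Cux1, Tbr1 and Sox5 lay between 6.79 and 10.6 CPM per kb, again with neighbours overlapping. In OGD_WT the lowest Bcl11b library (13.8) also lay below the highest Rorb library (16.3).

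A ratio within a library does not depend on the scaling between libraries. On the log2 CPM per kb scale, Bcl11b exceeded Pou3f2 in 5 of 5 N_WT libraries, by 0.20 to 0.77, and in 5 of 5 N_KO libraries, by 0.27 to 0.83. Under OGD Bcl11b was below Pou3f2 in all 10 libraries, with differences of -1.34 to -0.90 in OGD_WT and -1.76 to -0.25 in OGD_KO. Bcl11b fell and Pou3f2 rose without overlap, so their difference had to separate the treatments and is no further support. The mean of the 5 deep-layer factors minus the mean of the 4 others had a median of 0.05 in N_WT and -0.06 in N_KO, and -0.90 in OGD_WT and -1.07 in OGD_KO. Normoxic and OGD ranges of this difference did not overlap in either genotype. Rorb, counted among the 4 others, fell in both genotypes. Whether Bcl11b lies above or below Pou3f2 depends on the exon lengths used. As log2 CPM without length, Bcl11b was above Pou3f2 by 0.28 in OGD_KO replicate 2 and below it in the other OGD libraries.

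**Figure D3:**
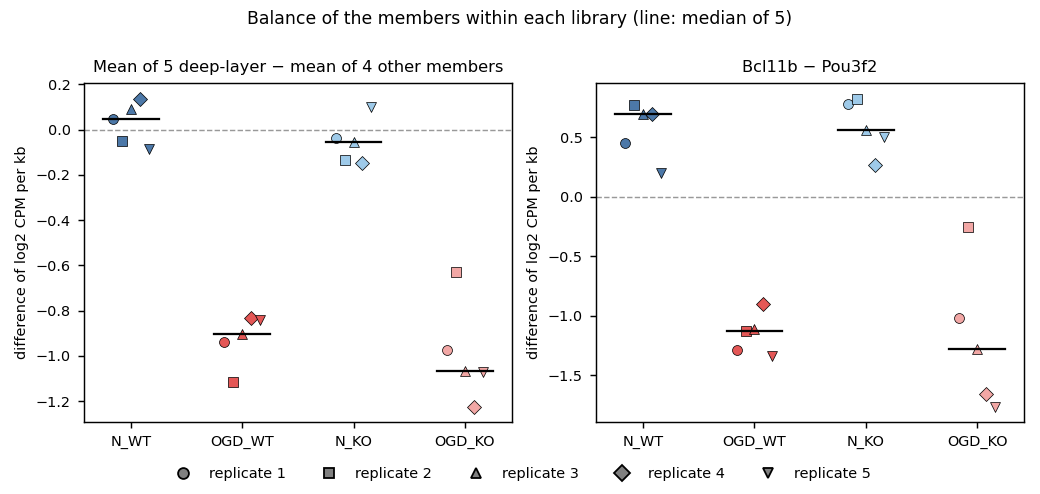
Left, mean of the 5 deep-layer factors minus mean of the 4 others in each library; right, Bcl11b minus Pou3f2, both as differences of log2 CPM per kb of merged exons (y axis), with symbols for replicate numbers and lines at the median of 5. Bcl11b lies above Pou3f2 in all normoxic libraries and below it in all OGD libraries.

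The knockout of ciRS-7 was compared with wild type under each treatment. Batches were not balanced between genotypes: batch 2 held only a knockout culture and batch 3.2 only a wild-type one. None of the 9 factors was called by limma in normoxia, where 0.0353% of 14152 genes (5 genes) were called and 256 had an unadjusted p under 0.05. None was called under OGD, where 0.0282% of 14185 genes (4 genes) were called and 253 had an unadjusted p under 0.05. Of the factors themselves, none had an unadjusted p under 0.05 in either comparison. Log2 fold changes (knockout minus wild type) ran from -0.10 for Sox5 to 0.11 for Rorb in normoxia and from -0.24 for Fezf2 to 0.10 for Tbr1 under OGD. The 95% intervals reached from -0.40 (Sox5) to 0.44 (Rorb) in normoxia and from -0.65 (Fezf2) to 0.43 (Tbr1) under OGD, so differences up to these sizes were not excluded. The difference between the OGD effects of the genotypes was tested over all 20 libraries, where 0% of 13688 genes were called and 99 had an unadjusted p under 0.05. It ranged from -0.19 for Fezf2 (95% interval -0.75 to 0.36) to 0.11 for Tbr1 (-0.40 to 0.62), and no factor was called (limma adjusted p = 1.00). In all of these genotype tests the share of genes with an unadjusted p under 0.05 was below the 0.05 that chance gives. The p-values may thus be too large, and the lack of calls does not show that the genotypes were alike. In the interaction, 156 genes had an unadjusted limma p under 0.05 without the culture as a block, beside 99 with it. The cause of the shortage was not tested.

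ciRS-7 carries many binding sites for miR-7, and letters matching this microRNA were sought in the 3′ UTRs of the factors (GENCODE M21, mm10), because the knockout removes a partner of miR-7. The mature sequence is from RefSeq (GRCm38.p6), with its seed, bases 2 to 8, in capitals, and the 2 UTR stretches show the match in capitals.
mmu-miR-7a-5p: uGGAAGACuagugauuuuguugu
Cux1 3′ UTR: agcctttgacTCTTCCAagcaagtttc
Cux2 3′ UTR: agaagcaatcTCTTCCAgcatcctgat
The site TCTTCCA occurred once each in Cux1 and Cux2, and in 18.2% of 21153 genes with a 3′ UTR. GTCTTCC (12.9% of genes) and the longer GTCTTCCA (3.83%) were in none of the 9 UTRs. For Cux1 the knockout minus wild-type difference was 0.06 (95% interval -0.25 to 0.38) in normoxia and 0.02 (-0.28 to 0.32) under OGD. For Cux2 it was 0.10 (-0.22 to 0.43) and 0.09 (-0.24 to 0.43).

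RefSeq promoter windows (250 bases before to 50 after a start, GRCm38.p6) matched 8 of the 9 factors, with 10 windows. Windows of 6 factors are shown because these factors were called in both genotypes: the 4 that fell, then the 2 that rose. Capitals mark matches, on either strand, to the hypoxia response cores ACGTG and GCGTG and, in the second Rorb window, also to TGANTCA, the AP-1 motif.
Bcl11b (chr12:108003365-108003664, minus strand): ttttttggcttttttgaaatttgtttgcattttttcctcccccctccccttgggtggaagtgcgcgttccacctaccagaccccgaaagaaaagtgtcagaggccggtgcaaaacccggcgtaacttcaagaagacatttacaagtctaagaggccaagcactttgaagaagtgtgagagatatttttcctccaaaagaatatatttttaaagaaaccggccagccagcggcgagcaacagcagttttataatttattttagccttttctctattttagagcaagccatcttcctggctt
Tbr1 (chr2:61804203-61804502, plus strand): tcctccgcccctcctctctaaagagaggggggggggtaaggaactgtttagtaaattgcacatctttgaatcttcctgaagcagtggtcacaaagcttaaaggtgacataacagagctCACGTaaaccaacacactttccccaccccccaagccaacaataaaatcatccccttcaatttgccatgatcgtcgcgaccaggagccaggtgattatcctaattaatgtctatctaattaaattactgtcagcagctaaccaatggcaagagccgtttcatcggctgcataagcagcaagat
Sox5 (chr6:143947057-143947356, minus strand): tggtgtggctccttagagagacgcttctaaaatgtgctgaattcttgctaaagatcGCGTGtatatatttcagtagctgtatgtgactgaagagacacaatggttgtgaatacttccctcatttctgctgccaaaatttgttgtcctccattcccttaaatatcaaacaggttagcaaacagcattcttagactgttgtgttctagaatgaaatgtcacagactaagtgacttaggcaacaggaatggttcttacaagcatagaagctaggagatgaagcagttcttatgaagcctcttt
Rorb, first window (chr19:19111147-19111446, minus strand): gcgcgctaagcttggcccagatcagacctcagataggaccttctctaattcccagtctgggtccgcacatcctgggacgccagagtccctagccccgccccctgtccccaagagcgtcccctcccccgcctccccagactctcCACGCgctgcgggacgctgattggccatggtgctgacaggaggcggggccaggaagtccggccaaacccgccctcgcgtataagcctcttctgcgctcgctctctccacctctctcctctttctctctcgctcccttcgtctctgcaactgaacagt
Rorb, second window (chr19:19001068-19001367, minus strand): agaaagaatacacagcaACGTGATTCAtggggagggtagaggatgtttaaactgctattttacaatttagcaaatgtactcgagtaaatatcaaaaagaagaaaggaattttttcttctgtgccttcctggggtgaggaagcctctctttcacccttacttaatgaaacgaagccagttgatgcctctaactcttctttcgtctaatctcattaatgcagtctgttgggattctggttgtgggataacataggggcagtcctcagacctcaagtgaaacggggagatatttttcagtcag
Pou3f2 (chr4:22488317-22488616, minus strand): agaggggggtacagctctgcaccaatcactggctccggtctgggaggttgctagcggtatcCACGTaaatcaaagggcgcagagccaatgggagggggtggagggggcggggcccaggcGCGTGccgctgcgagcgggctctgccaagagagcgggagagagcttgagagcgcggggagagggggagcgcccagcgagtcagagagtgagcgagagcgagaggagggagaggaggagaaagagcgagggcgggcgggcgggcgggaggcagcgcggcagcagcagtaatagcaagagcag
Cux1 (chr5:136565932-136566231, minus strand): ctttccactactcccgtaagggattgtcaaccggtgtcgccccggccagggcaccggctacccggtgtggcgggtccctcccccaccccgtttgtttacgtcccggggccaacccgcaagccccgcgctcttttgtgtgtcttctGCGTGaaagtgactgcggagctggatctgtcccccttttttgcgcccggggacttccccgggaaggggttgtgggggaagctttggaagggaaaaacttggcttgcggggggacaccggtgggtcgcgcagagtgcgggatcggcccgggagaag
Positions give the first printed base of a match, counting the first transcribed base as 1 and the base before it as -1. Pou3f2 held ACGTG (minus strand) at -189 and GCGTG at -131. Cux1 held GCGTG at -105. Of the factors that fell, Tbr1 held ACGTG (minus strand) at -132 and Sox5 GCGTG at -194, and the Bcl11b window held neither. Rorb held GCGTG (minus strand) at -107 in its first window and ACGTG at -233 in its second, where TGANTCA at -230 overlaps it. The Sox5, Tbr1 and Cux1 windows and the second Rorb window lie inside the spans of their genes, at internal starts. Their positions are counted from those starts. ACGTG was found in 19.6% and GCGTG in 32.4% of all 32851 windows. TGANTCA (7.81% of windows) was in windows of Fezf2 and Rorb, and TGACGTCA, the cyclic AMP response element (1.79%), was in none of the 10. A match is a description of letters and not a bound site.

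Other genes of projection neuron identity gave a background for the factors. Of 8 pan-projection-neuron genes, 0 rose and 7 fell in each genotype, with median log2 fold changes of -1.01 in wild type and -1.02 in the knockout. Slc17a7, the vesicular glutamate transporter VGLUT1, fell by 1.69 ± 0.19 (log2, SE) in wild type and 1.62 ± 0.24 in the knockout. Bhlhe22, a repressor required for projection neuron wiring, changed by -1.60 ± 0.21 and -1.31 ± 0.20, and Neurod6 by -1.15 ± 0.15 and -1.08 ± 0.16. Neurod2, the factor upstream of much of this programme, changed by -0.70 ± 0.15 and -0.69 ± 0.17. All 4 genes were called by limma in both genotypes.

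The upper-layer list had 11 genes besides the factors, of which 1 rose and 5 fell in each genotype (medians -0.13 and -0.25). The gene that rose was Pou3f3 (BRN1), the paralog that acts with Pou3f2, by 0.64 ± 0.15 in wild type and 0.58 ± 0.15 in the knockout. It was at 163 to 235 CPM in N_WT and 279.8 to 396 CPM in OGD_WT. Under library-total scaling Pou3f3 stayed positive at 0.36 and 0.29 with limma adjusted p of 0.0636 and 0.144. Calb1, a calcium-binding protein, changed by -1.66 ± 0.18 and -1.66 ± 0.16, Rasgrf2 by -1.13 ± 0.18 and -0.996 ± 0.15, and Inhba by -1.10 ± 0.18 and -0.97 ± 0.20.

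The layer 5 list had 9 genes, of which 1 rose and 4 fell in wild type and 1 rose and 3 fell in the knockout (medians -0.28 and -0.35). Ldb2, a LIM-domain-binding cofactor, fell by 0.62 ± 0.15 and 0.81 ± 0.17, and Cntn6, an adhesion molecule, by 1.02 ± 0.17 and 1.06 ± 0.17. The gene that rose, Diaph3, encodes a formin that also acts in dividing cells (0.92 ± 0.17 and 1.12 ± 0.15). Of 9 measured layer 6 and subplate genes, 3 rose and 4 fell in wild type, and 2 rose and 4 fell in the knockout (medians -0.04 and -0.05). Tle4, a corepressor of corticothalamic neurons, was at 61.9 to 88.0 CPM in N_WT and 25.7 to 43.7 CPM in OGD_WT and fell by 1.11 ± 0.16 (log2, SE) in wild type and 1.08 ± 0.16 in the knockout. Hs3st4 changed by -1.31 ± 0.18 and -1.39 ± 0.20 and Foxp1, a paralog of Foxp2, by -1.10 ± 0.14 and -1.08 ± 0.20. The subplate genes Nr4a2, an activity-dependent nuclear receptor, and Ccn2, a secreted matrix protein, rose by 1.197 ± 0.17 and 1.19 ± 0.16 in wild type and 1.0998 ± 0.19 and 0.91 ± 0.17 in the knockout. No gene of these 4 lists was called between genotypes under either treatment.

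**Figure D4:**
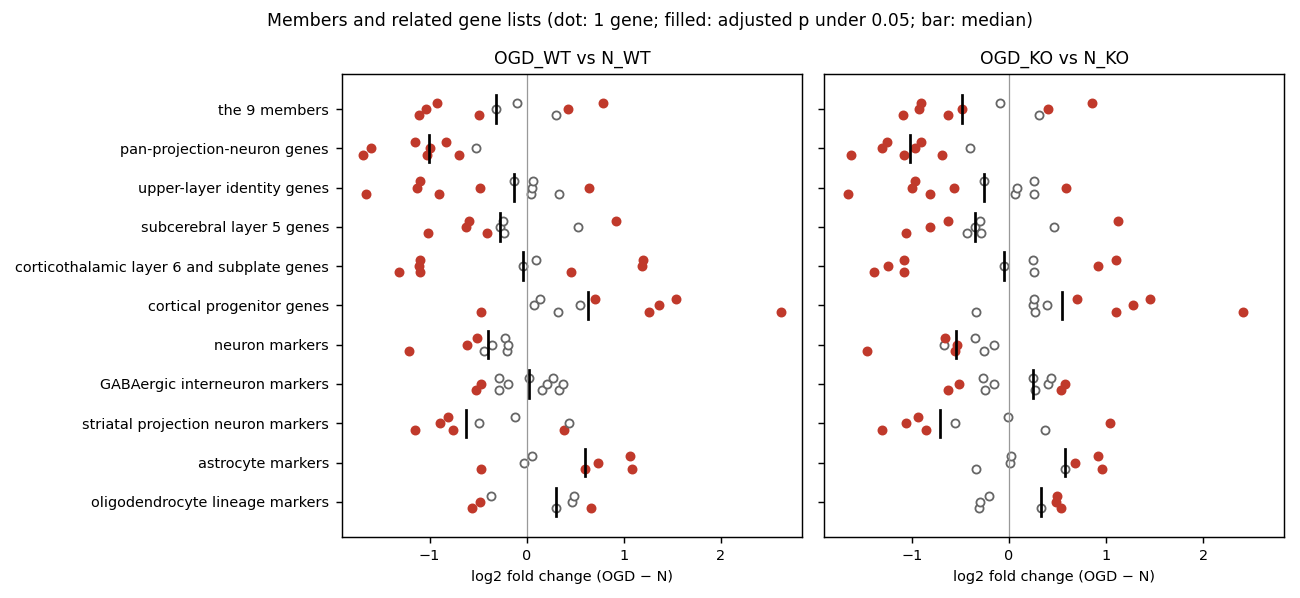
log2 fold change (x axis, OGD minus N) of the 9 factors and of the genes of 10 related lists in wild type (left) and knockout (right); a dot is 1 gene, filled where the limma adjusted p was under 0.05, and bars are medians. Pan-projection-neuron genes have medians of -1.01 and -1.02, cortical progenitor genes medians of 0.63 and 0.54.

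Some markers of other cells in the cultures moved with OGD too. Of 10 cortical progenitor genes, 5 rose in each genotype, with Neurog2, a proneural factor, higher by 2.62 ± 0.17 (log2, SE) in wild type and 2.41 ± 0.18 in the knockout and Hes1, a Notch effector, higher by 1.36 ± 0.17 and 1.45 ± 0.17. Eomes, the factor of intermediate progenitors, was the 1 gene of the list called lower in wild type, at -0.48 ± 0.16, and was at -0.34 ± 0.15 without a call in the knockout. Its wild-type call was lost without OGD_WT replicate 3 (limma adjusted p = 0.0523) or N_WT replicate 1 (0.0546), and the difference between genotypes was not called (interaction of 0.12 ± 0.25). Of the 10 progenitor genes, 4 were not called in wild type and 5 in the knockout. The summed level of the 10 lay between 348.8 and 599.9 CPM in N_WT and 576 and 1131 CPM in OGD_WT. In the knockout it lay between 431 and 665 CPM in N_KO and 759.6 and 1127 CPM in OGD_KO. Astrocyte markers in 7 genes summed to 1029 to 1214 CPM in N_WT, 1525 to 1992 CPM in OGD_WT, 790.3 to 1427 CPM in N_KO and 1405 to 1968 CPM in OGD_KO. In wild type 4 of them rose, 1 fell and 2 were not called. In the knockout 3 rose, 0 fell and 4 were not called. Slc1a3 rose by 1.08 ± 0.15 in wild type, from a mean log2 CPM of 8.82 to 9.90. Gja1 rose by 1.06 ± 0.14, from 5.67 to 6.73. Sums of CPM weigh the genes of highest level most, so a higher sum need not mean that all genes of a list rose. The gene that fell, Gfap, was at -0.47 ± 0.18 in wild type and at -0.34 ± 0.17 without a call in the knockout. Its wild-type call was lost in 7 of 10 fits without 1 library. The 8 neuron markers summed to 5690 to 7119 CPM in N_WT and 3673 to 6375 CPM in OGD_WT, and to 6246 to 6517 CPM in N_KO and 3995 to 5159 CPM in OGD_KO. Of these, 0 rose and 3 fell in wild type and 0 rose and 4 fell in the knockout, with Syt1, a synaptic vesicle protein, at -1.21 ± 0.19 and -1.46 ± 0.23.

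Of 7 oligodendrocyte lineage markers, 1 rose and 2 fell in wild type and 3 rose in the knockout. Of 11 interneuron markers, 0 rose and 2 fell in wild type and 2 rose and 2 fell in the knockout, and they summed to 438 to 565 CPM in N_WT and 452 to 570 CPM in OGD_WT. Of 8 striatal markers tested, 1 rose and 4 fell in each genotype, with Drd1, a dopamine receptor, at -1.15 ± 0.23 (log2, SE) and -0.85 ± 0.26. Meis2, the gene that rose in wild type (0.39 ± 0.15), had no call in the knockout (0.37 ± 0.16), where another gene rose. Of the 7 striatal markers present in all tables Meis2 had the highest level. Together these 7 summed to 382 to 481 CPM in N_WT and 485 to 652 CPM in OGD_WT. In the knockout the sum was 401 to 558 CPM in N_KO and 485.5 to 645 CPM in OGD_KO. Of 5 vascular markers 2 were tested in wild type, of which 1 rose and 1 fell, and 3 in the knockout, of which 1 rose. No marker was at 0 in all libraries among those present in all tables. Within batch 3 the knockout calls of Neurod2, Ldb2, Pou3f3 and Slc1a3 were lost (limma adjusted p from 0.0653 to 0.215). The part of these other cells in the changes of the layer factors was not tested.

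The genes whose profiles lay closest to a factor over the 20 libraries were found by the root mean square difference of gene-centred log2 CPM among 12684 genes. Tbr1 and Sox5 were each other's nearest factor, at 0.151 on the log2 scale, and shared Gas7 and Fbxo41 among their 3 nearest genes. The nearest of all to Tbr1 was Gas7 at 0.106, with log2 fold changes under OGD of -0.97 in wild type and -1.09 in the knockout. Closest to Bcl11b was Cd200 (0.156), to Pou3f2 Zeb1 (0.102) and Mcm3 (0.102), to Cux1 Cct5 (0.1), to Cux2 Tmem181b-ps (0.116), to Rorb Nell2 (0.154), to Fezf2 Basp1 (0.180) and to Foxp2 Hibch (0.134). Zeb1 rose by 0.73 in wild type and 0.71 in the knockout. These distances share libraries and are a description without a test.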

How the data were processed

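The authors deposited 4 tables of log2 CPM, 1 per comparison, with 14152 to 14375 gene symbols each. Coordinates use mm10, the build in the submitters' processing notes. Aligner, counter, strand setting, filter and scaling are not given in the sources used here. From values up to 500 reads, the extremes among 5 libraries of a group were inferred to be clipped at the 10th and 90th percentiles (weights 0.6 and 0.4). Larger values were not checked and were treated alike. No source states this step, and it was inverted here. As deposited, 45.5% to 92.8% of a library's values were whole reads, and at least 99.91% were after inversion, within 0.05 reads for values up to 500 reads. Test values come from the table of each comparison. Printed CPM and the interaction use TMM-scaled recovered reads, for the 13688 genes that all tables share, with a prior count of 2 for log2 CPM.

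Each comparison was fitted with limma 3.58.1 (trended eBayes, in R 4.3.3) over all genes of its table, two-sided, Benjamini-Hochberg adjusted over all of them and called under 0.05. The interaction used all 20 libraries with the culture as a block (duplicateCorrelation, estimate -0.19). P-values measure the spread between 5 libraries a group. On simulated data modelled on N_KO against N_WT (14152 genes, 200 changed 2-fold), 97.2% of changed genes were recovered from unclipped values with 4.87% false calls. From clipped values 99.1% were recovered with 32.8% false calls. The simulated counts were drawn independently, with a single dispersion and without batch or culture effects. These rates need not hold for the libraries here.

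N and OGD libraries of the same number share the culture's genotype number and batch per the labels and so were treated as pairs in the block fit. The correlation of their deviations from the group means was -0.71 to 0.034 in wild type and -0.796 to -0.065 in the knockout. Wild-type and knockout libraries of the same number need not share a batch.

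The members and gene lists were chosen with earlier results of these data known. All 9 members were named. From each list, up to 3 rising and 3 falling genes called in OGD_WT against N_WT (mean log2 CPM of at least 1, same direction in 5 of 5 cultures) and Tle4, Ldb2, Pou3f3 and Neurod2 could be named, with the 3 genes nearest to each member. The values of one other gene under this rule are not reported here. Alternatives were the deposited values, prior counts of 0.5 and 5, 2 other scalings, a filter, voom, the block, batch (with 3.1, 3.2 and 3.3 joined) and leaving out each library. A fit with the 5 batch labels as given was added after seeing the data.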

Additional observations from a re-analysis of the deposited data

Results flagged for a closer look

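Of the 36 sets of 5 libraries (9 factors in 4 groups), 3 held a library whose gap to its neighbour exceeded 0.71 of the group's range on the log2 scale. Chance gives about 1 in 20, or 1.8 sets. Sox5 in OGD_WT replicate 2 was at 67.4 CPM, while the other 4 libraries lay between 104 and 123 CPM. Foxp2 in N_KO replicate 2 was at 11.7 CPM, against 17.9 to 19.5 CPM in the others. Cux2 in N_KO replicate 4 was at 30.7 CPM, against 47.5 to 52.9 CPM. Without its library Sox5 kept its call under OGD in wild type, and Foxp2 and Cux2 stayed uncalled in the knockout.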

How the results depend on the processing

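Bcl11b, Tbr1 and Sox5 kept their direction and call in both OGD comparisons under all 11 other settings and without each library, and Pou3f2 lost its call only in the knockout within batch 3. In these comparisons the one change of direction was Foxp2 in the knockout within batch 3, at 0.032. The calls of Cux1, Rorb in wild type and Fezf2 in the knockout depended on single libraries, as given with their values. Leaving out 1 library left 4 to 7 members called in wild type and 5 to 7 in the knockout. Beside them 36.9% to 46.6% of all genes were called in wild type and 34.1% to 41.3% in the knockout. From the deposited values 8 members and 8280 genes (58.2%) were called in wild type and 7 members and 8024 genes (55.8%) in the knockout. Fewer cultures remained within batch 3, where 3 members and 2341 genes (16.3%) were called in the knockout. With the replicate block, 6 members and 5681 genes (39.9%) were called in wild type and 5 members and 4829 genes (33.6%) in the knockout. The block changed no other member's call. Scaling by library total is given in the report.

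Between genotypes the count of genes called by limma in normoxia was 9 from the deposited values, 3 with the filter on low values, 3 with the replicate block (numbers shared without a shared batch) and 2 within batch 3, and 3 to 5 without 1 library. With the batch labels as given as a covariate, a fit added after seeing the data, 11 genes were called in normoxia and 17 under OGD. Under OGD it was otherwise 12 from the deposited values, 1 with a prior count of 0.5, and 2 each with library-total scaling, with the replicate block and with batch as a covariate, and 1 to 7 without 1 library. The cause was not tested. None of these settings called a member.

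Values near 0 changed sign. Knockout minus wild type in normoxia: Tbr1 was 0.011 from the deposited values, Bcl11b -4.5e-05 and Pou3f2 -0.023 with library-total scaling, Pou3f2 -0.00296 with batch as a covariate, and Foxp2 -0.022 and Cux2 -0.00044 within batch 3. Under OGD, Bcl11b was -0.031 from the deposited values and -0.011 with library-total scaling, and Cux1 -0.0039 with library-total scaling and -0.0012 with batch as a covariate. With the batch labels as given, Tbr1 was 0.022 and Pou3f2 -0.063 in normoxia, and Foxp2 -0.0019, Cux1 -0.0057 and Rorb 0.012 under OGD. For the interaction, Cux2 was 0.0036 and Sox5 0.0092 with upper-quartile scaling, Sox5 0.0051 with library-total scaling, and Cux2 0.14, Foxp2 0.055 and Sox5 0.0043 within batch 3. Without the replicate block no member was called in the interaction.

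Without 1 library, the normoxic knockout difference ranged from -0.12 to 0.0296 for Fezf2, -0.069 to 0.13 for Cux1, -0.099 to 0.087 for Tbr1, -0.052 to 0.13 for Bcl11b and -0.061 to 0.067 for Pou3f2. Under OGD it ranged from -0.017 to 0.17 for Foxp2, -0.048 to 0.074 for Cux1, -0.0033 to 0.18 for Tbr1, -0.16 to 0.13 for Rorb, -0.14 to 0.11 for Bcl11b and -0.025 to 0.14 for Pou3f2. The interaction ranged from -0.10 to 0.054 for Bcl11b, -0.12 to 0.061 for Cux1, -0.18 to 0.12 for Cux2, -0.14 to 0.13 for Foxp2, -0.0035 to 0.14 for Pou3f2 and -0.095 to 0.068 for Sox5. Foxp2, with as few as 91 reads in a library, is measured with the lowest depth of the 9.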

Other observations

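Within a library, the deep-layer factors did not all keep their proportion to one another under OGD. Fezf2 minus Bcl11b, as a difference of log2 CPM, lay between -3.36 and -2.49 in N_WT and between -2.38 and -1.96 in OGD_WT, without overlap. In the knockout the ranges were -3.08 to -2.47 in N_KO and -2.66 to -1.78 in OGD_KO, which overlapped. Tbr1 minus Bcl11b had medians of -1.65 in N_WT, -1.75 in OGD_WT, -1.61 in N_KO and -1.64 in OGD_KO. These values were picked out after they were seen and were not tested.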
